A study of Mus musculus with 21 samples.

Results

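The 10 pericyte and smooth muscle genes Acta2, Tagln, Myh11, Myl9, Cnn1, Des, Pdgfrb, Rgs5, Kcnj8 and Abcc9 were taken by symbol from the hippocampal RNA-seq tables of a study of CD8+ T cells and ageing. All 10 were found among the 24411 genes of each of the 2 tables. Pericytes and vascular smooth muscle cells, together called mural cells, wrap the endothelial tube of brain vessels. Smooth muscle surrounds arteries and arterioles in rings and sets their diameter through an actin and myosin apparatus, whose genes are controlled by serum response factor (SRF) and its partners of the myocardin family. Pericytes sit on capillaries inside the basement membrane, depend on platelet-derived growth factor from the endothelium, and help to maintain the blood-brain barrier. The first 6 genes encode parts of the contractile apparatus and its filaments, and the other 4 encode a receptor, a signalling regulator and a potassium channel that mark pericytes.

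The RNA came from perfused male wild-type mice, 21 in all, with 1 hippocampus per mouse. In the transfer experiment, B6.SJL-Ptprca Pepcb/BoyJ recipients of 4 months were first depleted of their own CD8+ T cells with anti-CD8a antibody on days -11 and -7, controls included. They were then injected by tail vein with CD8+ T cells of C57BL/6J donors, either 22 to 28 months old (aged T, n = 5) or 3 to 4 months old (young T, n = 6). In the depletion experiment, mice of 22 to 24 months were injected every 4 days with the antibody to CD8a (CD8a antibody, n = 5) or with a rat isotype control antibody (IgG2b, n = 5). The transfer thus compares donor ages in the brains of young mice given antibody against their own CD8+ T cells. The depletion compares the brains of aged mice given that antibody or the isotype control. Whether CD8+ T cells within the brain were lost was not tested here. Values are normalized counts, read counts divided by 1 size factor per library, and the 2 tables were normalized separately, so levels are compared within a table only.

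Libraries held 9957822 to 15055422 reads. In the depletion experiment, CD8a antibody libraries were shallower on average (9957822 to 12136146, mean 10972876) than IgG2b libraries (11103024 to 14375029, mean 13129229). The part of depth in the differences was not tested. Library numbers follow the order of the sample records and pair no mice between groups. Whether the mice of a group shared a cage, litter or day is not given in the sources used here, so p-values measure the spread between these mice. CD8a antibody library 5 stood apart on the first principal component of the depletion experiment (57.3, against -28.2 to 6.90 for the other 9 libraries), and results of that experiment are given without it where it matters. Striated muscle could also supply contractile transcripts. Its actin gene Actc1 had 0 reads in all 21 libraries, and Acta1, the skeletal muscle actin, had means of 47.3 ± 5.67 normalized counts in aged T libraries, 47.0 ± 16.2 in young T libraries, 51.2 ± 25.5 with CD8a antibody and 47.0 ± 12.03 with IgG2b (SD, n = 5, 6, 5 and 5).

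Expressed per kilobase of the longest annotated transcript, the order of levels in young T recipients was Acta2 (177 ± 72.4 normalized counts per kilobase, SD, n = 6), Myl9 (167 ± 75.2), Tagln (156 ± 65.1), Rgs5 (136 ± 24.8), Pdgfrb (63.2 ± 12.1), Myh11 (51.4 ± 23.6), Kcnj8 (23.7 ± 9.62), Abcc9 (17.2 ± 2.09), Des (15.3 ± 6.92) and Cnn1 (6.59 ± 3.28). Of the neighbours in this order, Rgs5 and Pdgfrb were the 1 pair whose means differed by more than their SDs added together. In the aged mice that had IgG2b the order was Rgs5 (84.8 ± 12.01, n = 5), Myl9 (74.5 ± 9.07), Acta2 (49.0 ± 9.56), Tagln (40.04 ± 11.2), Pdgfrb (30.5 ± 3.93), Kcnj8 (19.4 ± 4.43), Abcc9 (11.7 ± 1.45), Myh11 (11.4 ± 3.15), Des (3.99 ± 0.459) and Cnn1 (1.05 ± 0.632). By the same measure Rgs5 and Myl9 did not differ beyond their spread, nor did Acta2, Tagln and Pdgfrb in their neighbouring pairs, nor Abcc9 and Myh11. Contractile genes stood low beside the cytoskeletal forms that other brain cells use. The cytoplasmic actins Actb and Actg1 lay at 7807 ± 1080 and 8020 ± 613 per kilobase in young T recipients, and Tagln3, the neuronal relative of Tagln, at 2269 ± 210.

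Young T recipients differed more among themselves in the 6 contractile genes than in Pdgfrb, Rgs5 and Abcc9. Their coefficient of variation was 40.9% for Acta2, 41.6% for Tagln, 45.8% for Myh11, 45.0% for Myl9, 49.7% for Cnn1 and 45.3% for Des. It was 19.1% for Pdgfrb, 18.2% for Rgs5 and 12.2% for Abcc9, while Kcnj8 had 40.6%. In IgG2b libraries the classes overlapped. Contractile genes had 11.5% (Des), 12.2% (Myl9), 19.5% (Acta2), 27.7% (Myh11), 28.0% (Tagln) and 60.5% (Cnn1, at few reads). Pericyte genes had 12.4% (Abcc9), 12.9% (Pdgfrb), 14.2% (Rgs5) and 22.8% (Kcnj8). The plot of every library shows these widths.

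**Figure D1:**
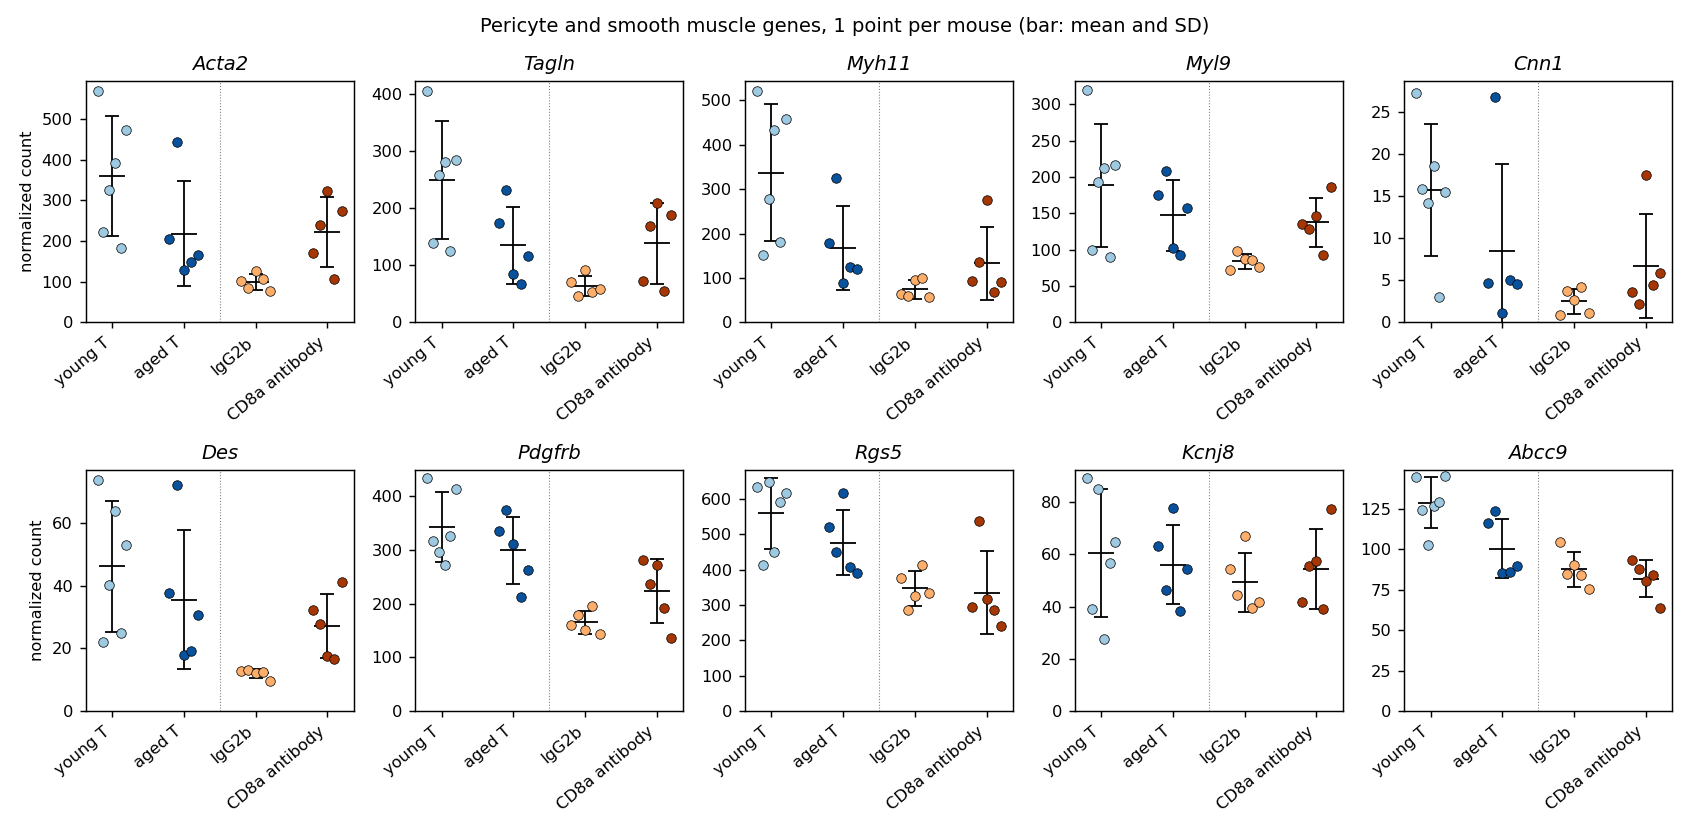
Normalized counts (vertical axis, starting at 0) of the 10 genes, 1 panel per gene and 1 point per mouse, with bars for the group mean and SD, cut off at 0. The dotted line separates the transfer experiment (left, 6 young T and 5 aged T libraries) from the depletion experiment (right, 5 IgG2b and 5 CD8a antibody libraries). Groups overlap in every panel and experiment except Des in the depletion experiment, where all 5 antibody libraries (16.8 to 41.2) lie above all 5 IgG2b libraries (9.66 to 13.01).

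Promoter sequences are shown because SRF, the known common regulator of the contractile genes, binds a short element called the CArG box. Whether SRF had a part in how these genes varied across mice was not tested. Windows from 250 bases before to 50 bases after the start were available from RefSeq (GRCm38.p6) for 7 of the 10 genes, Acta2, Myl9, Cnn1, Des, Rgs5, Kcnj8 and Abcc9, and those of Tagln, Myh11 and Pdgfrb were not used here. The box was searched on both strands with A or T at all 6 middle positions (strict), and also with 1 G or C allowed in the middle (relaxed, chosen after the strict matches were seen). Myl9, which encodes the regulatory myosin light chain of smooth muscle, had a strict box and a relaxed box. They began 161 and 99 bases before the start that sets its window. An earlier annotated start lies upstream of that one, nearer to both boxes. The promoter is shown only up to this earlier start, from chr2:156775214-156775407 on the plus strand, with both boxes in capitals.

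Myl9: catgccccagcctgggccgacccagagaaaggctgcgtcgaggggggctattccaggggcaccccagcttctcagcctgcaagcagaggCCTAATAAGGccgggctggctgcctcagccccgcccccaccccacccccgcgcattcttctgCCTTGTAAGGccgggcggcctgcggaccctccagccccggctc

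Acta2, the smooth muscle actin gene, had no strict box in the window and 2 relaxed ones, 84 and 34 bases before the RefSeq start. They are shown with 10 bases to each side, the box in capitals, from chr19:34255438-34255467 and chr19:34255388-34255417 on the minus strand, which lie within the first exon of a longer Acta2 transcript in GENCODE.

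Acta2 first site: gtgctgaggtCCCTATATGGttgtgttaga

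Acta2 second site: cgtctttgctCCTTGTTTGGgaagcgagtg

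Rgs5, the most abundant pericyte gene per kilobase, had no box of either kind in its window, and the 250 bases before its start are shown for comparison from chr1:169655251-169655500 on the plus strand.

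Rgs5: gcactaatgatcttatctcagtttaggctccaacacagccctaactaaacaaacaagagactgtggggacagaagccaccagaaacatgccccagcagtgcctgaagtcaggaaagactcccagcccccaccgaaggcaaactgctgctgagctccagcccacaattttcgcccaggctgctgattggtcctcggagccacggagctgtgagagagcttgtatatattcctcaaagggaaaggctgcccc

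Of all 27025 mouse genes with such windows, 488 (1.81%) held a strict box in 1 of them and 3050 (11.3%) a relaxed one. Of the 7 genes described here, 1 held a strict and 2 a relaxed box. Cnn1, Des, Kcnj8 and Abcc9 had neither. A match shows only that these letters are in this window.

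The transfer experiment asked what T cells from old donors do to a young hippocampus. All 10 genes had a lower mean in aged T than in young T recipients, and for Myh11, Tagln and Acta2 3 of the 5 aged T libraries lay below every young T library. Log2 differences ran from -1.16 to -0.28 over the contractile genes and from -0.37 to -0.04 over the pericyte genes, and groups overlapped for every gene. limma called 0 of the 10 at an adjusted p under 0.05, against 0 of 14162 genes tested (0%), and edgeR, DESeq2 and limma-voom also called 0. An unadjusted limma p under 0.05 was found for 4 of the 10, Acta2, Tagln, Myh11 and Abcc9, all lower, where 561 of all genes (3.96%) had one on the lower side. No gene of the 10 had all aged T libraries below all young T libraries, which was so for 34 of all genes (0.24%). The median log2 difference over the 10 was -0.39, and over all genes tested it was -0.00, with 51.0% of them lower. In whole hippocampus, fewer mural cells and less RNA per mural cell cannot be told apart.

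Myh11, the smooth muscle myosin heavy chain (chromosome 16, 14194535 to 14291372, minus strand, GRCm38), is the most specific of the contractile genes for mature smooth muscle. It was at 180, 326, 87.8, 124 and 120 normalized counts in aged T libraries 1 to 5 and at 151 to 520 (median 355) in young T recipients. Of the 5 aged T libraries, 3 lay below every young T library, and library 2 lay among the young T values. The means were 167 ± 94.7 and 337 ± 154 (SD, n = 5 and 6), and the difference on the log2 scale was -1.01 (SE 0.35, limma adjusted p = 0.600). It did not pass the test.

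Tagln, which encodes the actin-bundling protein transgelin (chromosome 9, 45929619 to 45936058, minus strand), had 174, 232, 85.5, 66.9 and 117 normalized counts in the 5 aged T libraries. Young T recipients ran from 126 to 405 with a median of 270. All 5 aged T values lay below the young T median and 3 below the lowest young T value. The log2 difference was -0.91 (SE 0.33, limma adjusted p = 0.600). The gene overlaps Pcsk7 on the opposite strand. The libraries were strand-specific, but how strand entered the counting is not given in the sources used here.

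Acta2 (chromosome 19, 34241090 to 34255590, minus strand) was at 204, 442, 128, 148 and 167 normalized counts in aged T libraries and at 184 to 568.1 (median 358) in young T recipients. Aged T library 2 stood far above the other 4, of which 3 lay below every young T library. The log2 difference was -0.77 (SE 0.32, limma adjusted p = 0.600), and -1.06 without aged T library 2. Without young T library 1, the highest, it was -0.62.

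The other contractile genes had smaller or less certain differences. Myl9 (chromosome 2, 156775420 to 156781658, plus strand) had 175, 208, 102, 93.3 and 158 normalized counts in aged T and 90.3 to 320 (median 202) in young T libraries, with none of the aged T libraries outside the young T range. Des, the intermediate filament protein desmin of muscle and mural cells (chromosome 1, 75360329 to 75368579, plus strand), had 37.8, 72.2, 18.0, 19.3 and 30.8 against 22.1 to 73.8 (median 46.5). Their log2 differences were -0.28 (SE 0.30, limma adjusted p = 0.795) and -0.42 (SE 0.38, limma adjusted p = 0.753). Myl9 was at -0.11 without young T library 1 and -0.47 without young T library 5, and Des at -0.23 without aged T library 3 and -0.71 without aged T library 2. Cnn1, the actin-binding protein calponin (chromosome 9, 22099216 to 22109630, plus strand), had 4.73, 26.7, 1.13, 5.07 and 4.53 against 2.98 to 27.2 (median 15.6). These Cnn1 values rest on 46 reads in 5 libraries and 93 reads in 6, and its log2 difference of -1.16 (SE 0.62, limma adjusted p = 0.613) went to -1.69 without aged T library 2 and to -0.76 without aged T library 3.

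Among the pericyte genes, Abcc9 had the smallest spread. It encodes SUR2, the regulatory subunit of an ATP-sensitive potassium channel (chromosome 6, 142587862 to 142702315, minus strand). Aged T libraries had 116, 124, 85.5, 86.2 and 89.7 normalized counts and young T libraries 103 to 145 (median 128), so that 3 aged T libraries lay below the young T range and 0 above its median. The log2 difference was -0.37 (SE 0.15, limma adjusted p = 0.600). Kcnj8, which encodes the pore subunit Kir6.1 of the same channel (chromosome 6, 142564837 to 142571614, minus strand), had 63.3, 46.3, 77.7, 38.5 and 54.4 against 27.8 to 89.3 (median 60.7). Its log2 difference of -0.04 (SE 0.29, limma adjusted p = 0.981) turned sign when single libraries were left out, between -0.23 and 0.10. The subunits had a correlation of -0.03 across libraries, and the ratio of Kcnj8 to Abcc9 ran from 0.374 to 0.908 in aged T and from 0.220 to 0.828 in young T libraries.

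Pdgfrb, the receptor for platelet-derived growth factor on mural cells (chromosome 18, plus strand), had 336, 373, 312, 213 and 262 normalized counts in aged T libraries and 273 to 434 (median 321) in young T libraries. Rgs5, a regulator of G protein signalling that is abundant in brain pericytes (chromosome 1, 169655501 to 169695813, plus strand), had 520, 450, 616, 409 and 390 against 412 to 649 (median 604). Each had 2 aged T libraries below the young T range. Their log2 differences were -0.20 (SE 0.15, limma adjusted p = 0.705) and -0.23 (SE 0.14, limma adjusted p = 0.658). Neither passed the test, and both lay closer to 0 than those of Myh11, Tagln and Acta2. The ratio of Acta2 to Rgs5, contractile against pericyte level within a library, was 0.208 to 0.982 (median 0.393) in aged T and 0.310 to 0.896 (median 0.653) in young T libraries, so the groups overlapped.

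The depletion experiment asked the reverse question, what removal of CD8+ T cells does to an aged hippocampus. Contractile genes lay higher in mice given the CD8a antibody, at 1.64 to 2.25 times the IgG2b mean for Acta2, Tagln, Myh11, Myl9 and Des. Pdgfrb stood at 1.35 times, and Rgs5, Kcnj8 and Abcc9 stood at 0.933 to 1.10 times. In the authors' deposited table, Acta2 rose by a log2 difference of 1.16 (SE 0.26, adjusted p = 0.0054) and Myl9 by 0.72 (SE 0.20, adjusted p = 0.0452), 2 of the 10 genes, where that table called 30 of 14024 genes with an adjusted p (0.214%) on the higher side. DESeq2 run here on the whole reads called the same 2, where it called 29 of 13665 genes with an adjusted p (0.212%) on the higher side and 89 in either direction. limma called 0 of the 9 genes tested, as did edgeR and limma-voom, and over all genes limma called 1 of 13939 (0.00717%). Without CD8a antibody library 5 limma called 25 of 13939, 0 of them among the 9. An unadjusted limma p under 0.05 was found for 5 of the 9, Acta2, Tagln, Myh11, Myl9 and Des, all higher, against 601 of all genes (4.31%) on the higher side. Des was the 1 gene whose groups did not overlap, which was so on the higher side for 109 of all genes (0.782%). The median log2 difference over the 9 was 0.68 (0.38 without CD8a antibody library 3, and 0.81 without library 4), against -0.00 over all genes tested, of which 49.6% were higher. Without CD8a antibody library 5, the library that stood apart, the log2 differences were 0.97 for Acta2, 0.80 for Tagln, 0.78 for Myh11, 0.56 for Myl9 and 0.87 for Des.

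**Figure D2:**
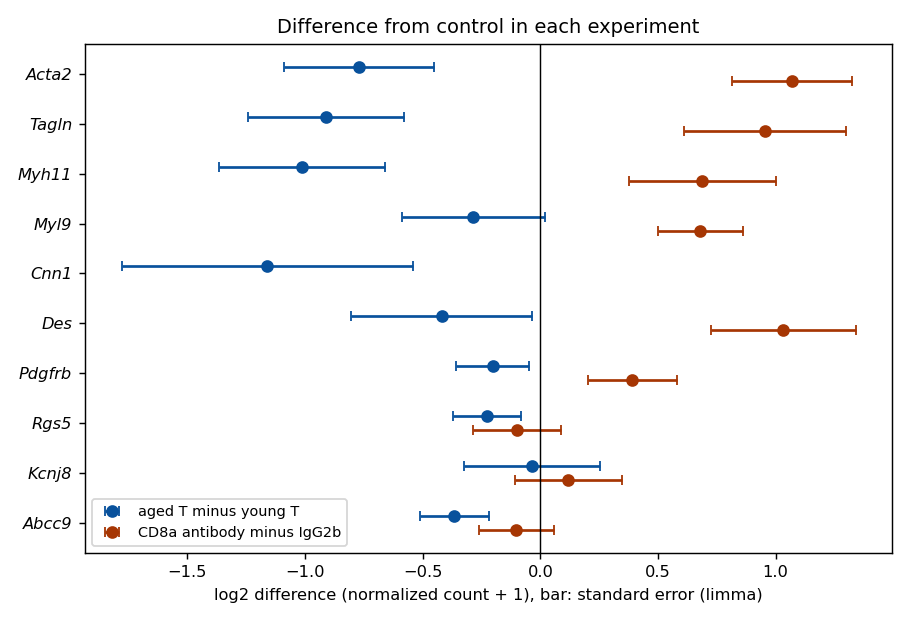
Log2 difference (horizontal axis) of each gene from its control in the transfer experiment (aged T minus young T) and the depletion experiment (CD8a antibody minus IgG2b), with bars of 1 standard error from limma. Contractile genes lie left of 0 in the transfer and right of 0 in the depletion experiment, Pdgfrb lies at -0.20 and 0.39, and Rgs5, Kcnj8 and Abcc9 lie between -0.37 and 0.12 in both. Cnn1 was below the level tested in the depletion experiment.

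Acta2 had 171, 238, 322, 106 and 274 normalized counts in CD8a antibody libraries 1 to 5 and 103, 83.6, 127, 107 and 78.4 in IgG2b libraries. All but antibody library 4 lay above every IgG2b library. The means were 222 ± 85.1 and 99.8 ± 19.5 (SD, n = 5 in both groups), and the difference on the log2 scale was 1.07 (SE 0.26, limma adjusted p = 0.245). It was 1.31 without CD8a antibody library 4. Over the 21 alternatives run here, its adjusted p was between 0.00526 and 0.552.

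Myl9 had 135, 128, 147, 92.7 and 186 normalized counts with the antibody and 72.5, 98.5, 87.7, 85.5 and 76.2 with IgG2b. Again all but antibody library 4 lay above the IgG2b range. The means were 138 ± 33.8 and 84.1 ± 10.2, and the difference on the log2 scale was 0.68 (SE 0.18, limma adjusted p = 0.3003). Its adjusted p was between 0.0402 and 0.618 over the 21 alternatives.

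Des had 32.3, 27.9, 17.5, 16.8 and 41.2 normalized counts in antibody libraries and 12.9, 13.01, 12.2, 12.6 and 9.66 in IgG2b libraries. The lowest antibody library lay above the highest IgG2b library. The IgG2b values were close together, with a coefficient of variation of 11.5%. They came from 9 to 15 reads per library, where counting error is large, so their closeness does not show that the mice were alike. The log2 difference was 1.03 (SE 0.31, limma adjusted p = 0.334, and 0.1034 in the authors' deposited table). The values rest on 126 and 67 reads over the 5 libraries of each group, and Gm15179 overlaps the gene on the opposite strand.

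Tagln and Myh11 had wider spreads. Tagln had 71.9, 168, 209, 54.7 and 188 normalized counts against 70.8, 45.5, 91.2, 52.8 and 59.0, with 3 antibody libraries above the IgG2b range and 2 within it. Myh11 had 92.2, 137, 274, 69.3 and 91.1 against 63.0, 58.5, 94.7, 98.9 and 56.9, with libraries 2 and 3 above the range. The log2 differences were 0.96 (SE 0.35, limma adjusted p = 0.452) and 0.69 (SE 0.31, limma adjusted p = 0.577). For Myh11 a single mouse had much weight, and its difference was 0.38 without CD8a antibody library 3. Cnn1 had 3.59, 2.23, 17.5, 4.47 and 5.88 against 0.863, 3.72, 2.61, 4.19 and 1.07, from 32 and 14 reads in all, and was below the mean of 10 required for a test.

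Of the pericyte genes, Pdgfrb differed from the other 3. It had 280, 237, 271, 192 and 135 normalized counts with the antibody and 160, 178, 151, 195 and 143 with IgG2b, so that 3 antibody libraries lay above the IgG2b range and library 5 below it. Its log2 difference was 0.39 (SE 0.19, limma adjusted p = 0.603), and 0.56 without library 5. Rgs5 had 293, 538, 317, 287 and 240 against 376, 285, 327, 414 and 335, with library 2 high and the other 4 below the IgG2b median. Kcnj8 had 41.9, 55.7, 57.6, 39.1 and 77.4 against 54.4, 44.6, 66.9, 39.4 and 41.9, with both groups covering much the same range. Abcc9 had 93.4, 88.0, 80.2, 83.8 and 63.7 against 104, 84.6, 90.3, 83.8 and 75.1, again with overlapping ranges. Their log2 differences were -0.10 (SE 0.19, limma adjusted p = 0.913), 0.12 (SE 0.23, limma adjusted p = 0.915) and -0.10 (SE 0.16, limma adjusted p = 0.894). The signs of Rgs5 and Kcnj8 turned without CD8a antibody library 5 (0.01 and -0.02). Within libraries, the ratio of Acta2 to Rgs5 was 0.370 to 1.14 (median 0.584) with the antibody and 0.234 to 0.388 (median 0.274) with IgG2b, overlapping at antibody library 4.

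Contractile genes varied together from mouse to mouse, above all in the transfer experiment. After each log2 value was centred on its group mean, the 15 pairs of contractile genes had a median Pearson correlation of 0.90 (0.70 to 0.97) over the 11 transfer libraries. The 6 pairs of pericyte genes had a median of 0.53 (-0.03 to 0.85), and the 24 pairs between the classes 0.30 (-0.31 to 0.69). The library order behind these values was plain in the raw data, since young T library 1 was highest of its group and aged T library 2 highest of its group in all 6 contractile genes. In the depletion experiment the 10 contractile pairs without Cnn1 had a median of 0.61 (-0.23 to 0.92), the 6 pericyte pairs 0.16 (-0.51 to 0.62) and the 20 pairs between them 0.05 (-0.52 to 0.85). Acta2 and Tagln were the most alike there (0.92), while Des and Myh11 were at -0.23. The pericyte genes did not form a single block. In the transfer, Abcc9 was close to Pdgfrb (0.77), Myh11 (0.69) and Acta2 (0.68), but not to Rgs5 (0.05) or Kcnj8 (-0.03). In the depletion experiment, Kcnj8 was close to Tagln (0.85) and Acta2 (0.76), and at -0.51 to -0.12 with the other pericyte genes. These are descriptions over libraries that share a dissection, a depth and a size factor per mouse.

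**Figure D3:**
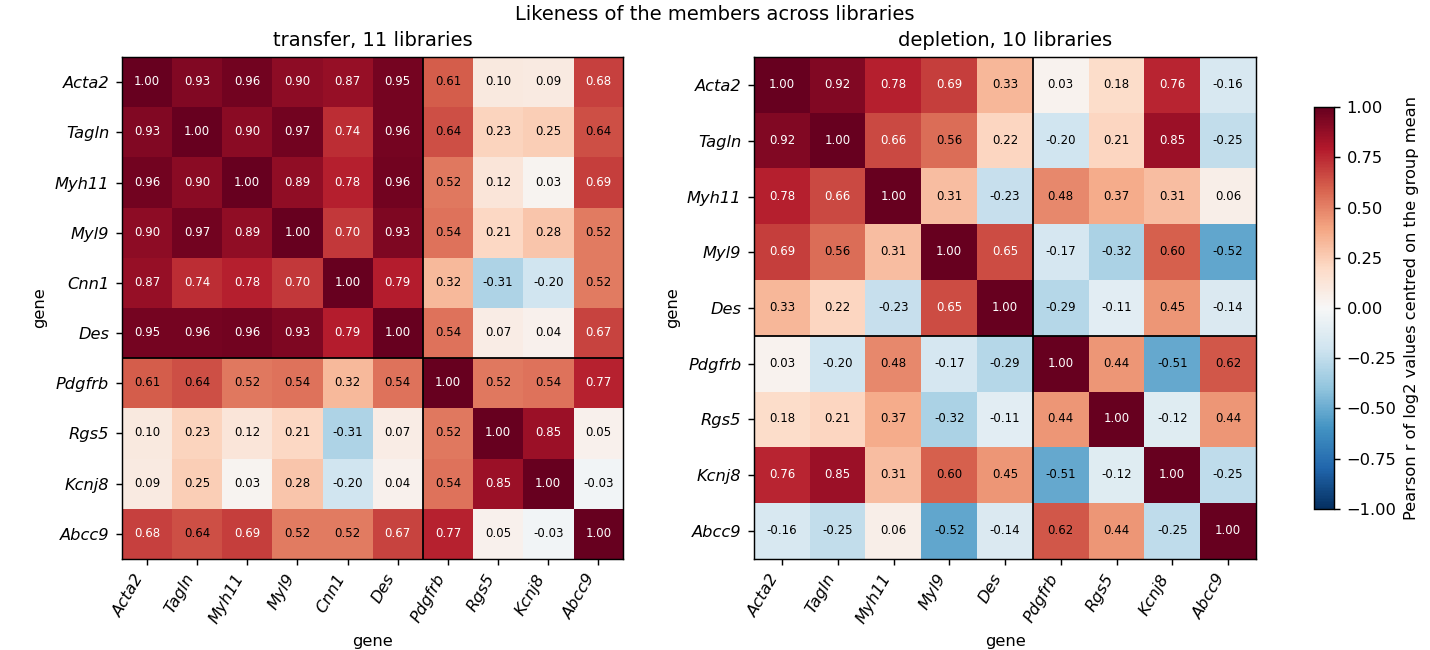
Pearson correlation between the genes, from log2(normalized count + 1) centred on the group mean, over the 11 transfer libraries (left) and the 10 depletion libraries (right, without Cnn1). Colour runs from blue (-1) over white (0) to red (1), and black lines separate contractile from pericyte genes. The contractile block of the transfer experiment is red throughout (0.70 to 0.97), and that of the depletion experiment is mixed (-0.23 to 0.92).

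Over all tested genes of the transfer experiment, the 8 most like Myh11 were Des (0.96), Acta2 (0.96), the zinc finger gene Zfp317 (0.91), Tagln (0.90), Gxylt2 (0.89), Myl9 (0.89), the smooth muscle tropomyosin Tpm2 (0.88) and Phf12 (0.88), over 11 libraries, so 4 of the 8 came from the contractile genes described here. Those most like Rgs5 were Ndufaf2 (0.94), Mrps35 (0.90), Mrpl53 (0.90), Podxl (0.89), Gkap1 (0.89), Lss (0.88), Tmem194b (0.88) and Tmem181c-ps (0.88), none of them a pericyte gene of the lists, and Kcnj8 followed at rank 23 (0.85). In the depletion experiment, over 10 libraries, those most like Myh11 were Harbi1 (0.87), Tes (0.87), Pet117 (0.87), Rimbp3 (0.86), Pappa2 (0.85), Tmem231 (0.83), the elastin gene Eln (0.82) and Anpep (0.82), an aminopeptidase known from pericytes, with Acta2 at rank 17 (0.78). Those most like Rgs5 were Mvb12b (0.97), the neuronal kinesin Kif1a (0.96), Efcab5 (0.96), Chd3 (0.96), Plod2 (0.95), Svip (0.95), Ssfa2 (0.94) and Bcl2l2 (0.94), with no other of the 10 genes near the top. Rgs5 had a single high value there, 538 in CD8a antibody library 2 against 240 to 317 in the other antibody libraries. How far these correlations rest on that library was not tested.

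Most other genes of the same cells were also lower in aged T recipients and higher with the antibody, with few at a small p. Of 19 tested smooth muscle genes outside the 10, 13 were lower and 6 higher in aged T recipients (median log2 difference -0.24, or -0.15 without aged T library 5 and -0.11 without young T library 1), with 0 called by limma and 2 at an unadjusted p under 0.05, both lower (3.96% of all genes). Those 2 were Pln, the phospholamban that restrains the calcium pump of the sarcoplasmic reticulum (19.7 ± 11.3 against 51.7 ± 22.1, log2 -1.39, SE 0.38, limma adjusted p = 0.600), and the integrin Itga8 (log2 -0.43, SE 0.17). With the CD8a antibody, 15 of 17 were higher (median 0.24, or 0.36 without CD8a antibody library 5), with 0 called by limma and 4 at an unadjusted p under 0.05, all higher (4.31% of all genes). The smallest p belonged to Ppp1r14a, an inhibitor of myosin phosphatase (362 ± 95.5 against 224 ± 45.6, log2 0.68, SE 0.19, limma adjusted p = 0.311), and to Pln (19.3 ± 5.65 against 10.2 ± 2.85, log2 0.85, SE 0.33, limma adjusted p = 0.492). Pln thus lay lower in the transfer and higher in the depletion experiment, as Acta2 did, whereas Ppp1r14a lay at 0.30 (SE 0.25) in the transfer.

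Of 22 tested pericyte genes outside the 10, 15 were lower in aged T recipients (median -0.16, or -0.09 without aged T library 4, -0.10 without aged T library 5 and -0.06 without young T library 1), with 0 called by limma and 3 at an unadjusted p under 0.05, all lower (3.96% of all genes). The smallest p belonged to Cspg4, the NG2 proteoglycan of pericytes and oligodendrocyte precursors (193 ± 19.2 against 237 ± 27.5, log2 -0.29, SE 0.11), and Notch3, the Notch receptor of mural cells (157 ± 31.0 against 210 ± 49.0, log2 -0.41, SE 0.18), both at a limma adjusted p of 0.600. With the CD8a antibody, 17 of 21 were higher (median 0.27, or 0.16 without IgG2b library 2), with 0 called by limma and 2 at an unadjusted p under 0.05, both higher (4.31% of all genes). They were the adhesion molecule Mcam (240 ± 49.3 against 162 ± 38.3, log2 0.57, SE 0.18, limma adjusted p = 0.356) and the vascular connexin Gja4 (log2 0.66, SE 0.31, limma adjusted p = 0.580).

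Regulators of the contractile programme were measured too. Srf itself had means of 873 ± 108 normalized counts (aged T) and 887 ± 133 (young T) in the transfer, and at 769 ± 82.4 with the antibody and 755 ± 43.1 with IgG2b. Its partner Myocd was too weak to test, at 0.987 ± 0.960 and 3.29 ± 2.30 in the transfer experiment and 0.479 ± 1.07 and 1.38 ± 1.26 in the depletion experiment. Of 11 tested regulators, 11 were lower in aged T recipients (median -0.24, or -0.15 without aged T library 5), led by the myocardin-related factor Mkl2 (log2 -0.24, SE 0.12) and the Krüppel-like factor Klf5 (-0.55, SE 0.28), and with the antibody 4 were higher and 7 lower (median -0.05, between -0.14 and 0.09 as single libraries were left out). limma called 0 of these regulators in either experiment, and 0 had an unadjusted p under 0.05. The list does not divide activators from repressors. Its summed levels were 10162 to 13235 normalized counts in aged T and 11249 to 14123 in young T libraries. Those of the 10 genes were 1203 to 2300 and 1542 to 3216. Which cells the regulators' RNA came from was not tested.

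Signals that recruit pericytes to vessels had 15 of 22 genes lower in aged T recipients (median -0.06, between -0.09 and -0.02 as single libraries were left out) and 14 of 22 higher with the antibody (median 0.10, between 0.06 and 0.20), with 0 called by limma in either. Pdgfb, the endothelial ligand of Pdgfrb, was at 398 ± 69.2 against 376 ± 17.6 in the transfer and at 310.3 ± 27.4 against 313 ± 20.9 in the depletion experiment. Angpt2, the angiopoietin that loosens pericytes from vessels, had the smallest p of the list in the transfer (12.4 ± 4.51 against 24.5 ± 15.9, log2 -0.82, SE 0.37, limma adjusted p = 0.600), and Tie1, an endothelial receptor of that pathway, in the depletion experiment (115 ± 22.7 against 71.4 ± 12.5, log2 0.68, SE 0.18, limma adjusted p = 0.2999). Tie1, which is also among the endothelial markers, was the 1 gene of this list whose groups did not overlap on the higher side. Of all genes tested, 109 (0.782%) had such groups. Among 27 tested receptors and enzymes of vasomotor control, 21 were lower in aged T recipients (median -0.15) and 18 lower with the antibody (median -0.12, between -0.19 and 0.02 as single libraries were left out), with 0 called by limma. They included Pde5a, the cyclic GMP phosphodiesterase of smooth muscle (log2 -0.39, SE 0.16, limma adjusted p = 0.600), in the transfer, and Nos3, the endothelial nitric oxide synthase (0.53, SE 0.18, limma adjusted p = 0.410), and the serotonin receptor Htr2a (-0.69, SE 0.26, limma adjusted p = 0.469) in the depletion experiment.

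**Figure D4:**
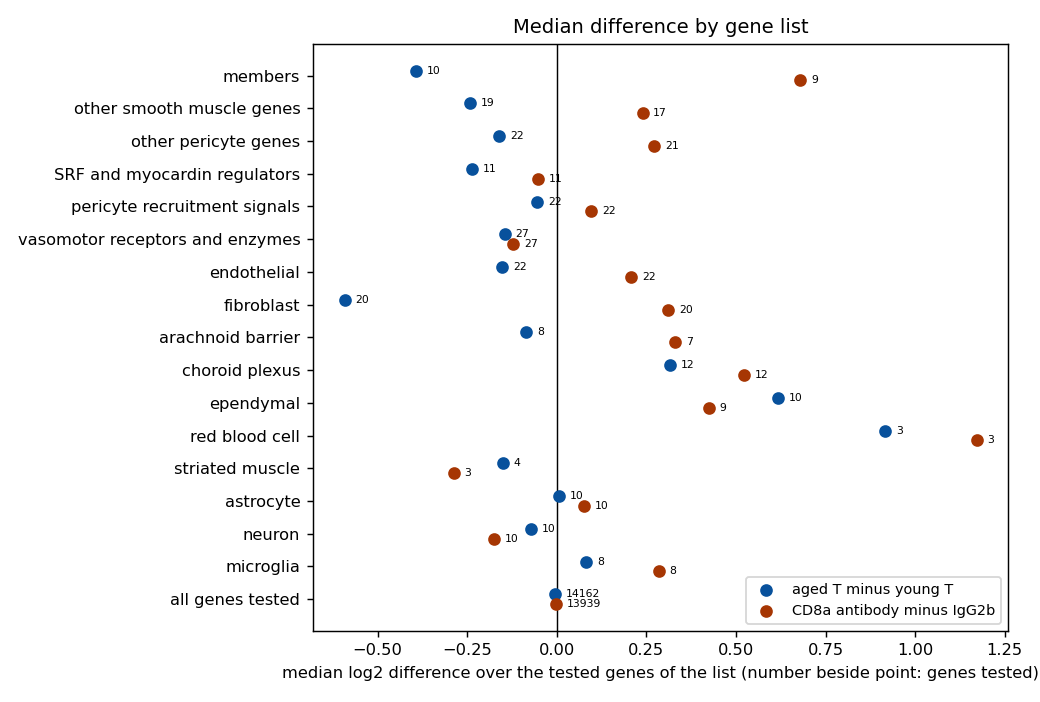
Median log2 difference from control (horizontal axis) over the tested genes of each list, for the transfer (aged T minus young T) and depletion (CD8a antibody minus IgG2b) experiments, with the number of tested genes beside each point. The 10 genes described here stand first, at -0.39 and 0.68, and all genes tested stand last, at -0.00 in both.

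Relatives with similar sequence were set beside the contractile and pericyte genes, since close copies can share reads. In the depletion experiment Actb had a log2 difference of 0.05 (SE 0.14) and Actg1 of 0.07 (SE 0.12), beside 1.07 for Acta2. Tagln2 and Tagln3 had 0.31 (SE 0.20) and 0.07 (SE 0.14), Myl12a and Myl12b 0.23 (SE 0.12) and 0.02 (SE 0.15), Cnn2 and Cnn3 0.60 (SE 0.18) and 0.14 (SE 0.12). Vim, the vimentin filament of many non-neuronal cells, had 0.57 (SE 0.15, limma adjusted p = 0.2999) beside 1.03 for Des. In the transfer experiment Myh9, the non-muscle myosin heavy chain, was lower (log2 -0.35, SE 0.10, limma adjusted p = 0.600) beside -1.01 for Myh11, and Actb was at -0.04 (SE 0.11). The smooth muscle actin of the gut, Actg2, was near the limit of counting in all groups, with means of 0.508 to 3.20 normalized counts. Among relatives of the pericyte genes, Abcc8 was at -0.37 (SE 0.15, limma adjusted p = 0.600) in the transfer, beside -0.37 for Abcc9. Kcnj11 was at -0.16 (SE 0.08) beside -0.04 for Kcnj8, and Pdgfra at -0.04 (SE 0.09) beside -0.20 for Pdgfrb. Rgs4, Rgs8 and Rgs16 were at -0.08, -0.13 and -0.07 beside -0.23 for Rgs5. In the depletion experiment Abcc8, Kcnj11 and Pdgfra were at -0.01, -0.06 and -0.23, and Rgs4, Rgs8 and Rgs16 at -0.27, -0.03 and -0.31.

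Most markers of fibroblasts and of the endothelium lay on the same side as the contractile genes in each experiment. Of 20 tested fibroblast markers, 20 were lower in aged T recipients (median -0.59), with summed levels of 4574 to 11566 normalized counts in aged T and 5763 to 20997 in young T libraries, and no marker at 0. With the CD8a antibody 16 of 20 were higher (median 0.31, or 0.20, 0.12 and 0.47 without CD8a antibody libraries 2, 3 and 5), with sums of 4341 to 11035 and 5376 to 8861. The median sum was lower with the antibody (5243 against 6064). Antibody libraries 1, 4 and 5 (4341, 4511 and 5243) lay below every IgG2b library. Dcn, decorin, went the other way in the depletion experiment (351 ± 151 against 803 ± 128, log2 -1.30, SE 0.26, limma adjusted p = 0.175) and fell in the authors' deposited table (adjusted p = 0.0019). Of 22 tested endothelial markers, 15 were lower in aged T recipients (median -0.15, or -0.08 without aged T library 4 and -0.04 without young T library 1, sums 6477 to 8683 against 6981 to 10485) and 19 higher with the antibody (median 0.21, or 0.09, 0.13 and 0.14 without CD8a antibody library 2, CD8a antibody library 3 and IgG2b library 5, sums 5330.3 to 7423 against 5135 to 5729.6). limma called 0 markers of either list, and none of the defining markers was at 0. In the transfer, 4 of 20 fibroblast and 1 of 22 endothelial markers had an unadjusted p under 0.05, all lower (3.96% of all genes). With the antibody, 3 fibroblast and 4 endothelial markers had one on the higher side (4.31%), and 1 of each on the lower (579 of 13939 genes). Groups did not overlap for 1 fibroblast and 2 endothelial markers on the higher side (0.782%), and 1 fibroblast marker on the lower (177 genes). Arachnoid barrier markers, of the inner meninges, were split in the transfer, with 4 higher and 4 lower (median -0.09, between -0.35 without aged T library 1 and 0.29 without aged T library 4). With the antibody 7 of 7 were higher (median 0.33, between 0.10 without CD8a antibody library 2 and 0.58 without library 5).

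With the mean of the fibroblast markers as a covariate, the transfer difference was -0.31 instead of -0.77 for Acta2, -0.35 instead of -0.91 for Tagln and -0.50 instead of -1.01 for Myh11, and 0.21 instead of -0.28 for Myl9. With the endothelial mean it was -0.58, -0.64 and -0.81 for the first 3. Des was at 0.10 with the fibroblast mean, instead of -0.42. In the depletion experiment Acta2 was at 0.92 with the fibroblast and 0.81 with the endothelial mean, instead of 1.07, and Myh11 at 0.41 and 0.29 instead of 0.69. Des was at 1.13 and 1.04 instead of 1.03, and Myl9 at 0.66 and 0.68 beside 0.68 without a covariate.

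Markers of cells away from the vessel wall were measured as well. Ependymal markers, from the ventricle wall beside the hippocampus, were higher in both treated groups (10 of 10, median 0.62, and 9 of 9, median 0.42, or 0.65 without CD8a antibody library 5 and 0.72 without IgG2b library 5), and so were choroid plexus markers (12 of 12 each, medians 0.32 and 0.52, between -0.13 and 0.87 and between 0.16 and 1.21 as single libraries were left out). Of the ependymal markers, 4 of 10 in the transfer and 2 of 9 with the antibody had an unadjusted p under 0.05, all higher. Of all genes, 608 of 14162 and 601 of 13939 had one on that side. Of 8 microglial markers, 6 were higher in aged T recipients (median 0.08, between 0.01 and 0.14 as single libraries were left out). With the antibody 8 of 8 were higher (median 0.28, between 0.22 and 0.37), with summed levels of 4679 to 6292 normalized counts against 4113 to 4937 with IgG2b. In that experiment 4 of the 8 had an unadjusted p under 0.05, all higher (4.31% of all genes), and the groups of 2 did not overlap (0.782%). Of 3 tested red blood cell genes, 3 were higher in aged T recipients (median 0.92, between 0.49 and 1.39) and 2 with the antibody (median 1.17, between 0.38 and 1.94), at sums of 35.5 to 909 normalized counts over the 4 groups. Astrocyte markers were 5 higher and 5 lower in the transfer (median 0.01) and 7 of 10 higher with the antibody (median 0.07), neuronal markers were 8 of 10 lower (median -0.07) and 7 of 10 lower (median -0.18), and striated muscle markers were 2 of 4 lower (median -0.15) and 2 of 3 lower (median -0.29). limma called 0 of the markers of any of these lists. The part of dissection or of these other cells in the differences of the mural genes was not tested.

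**Figure D5:**
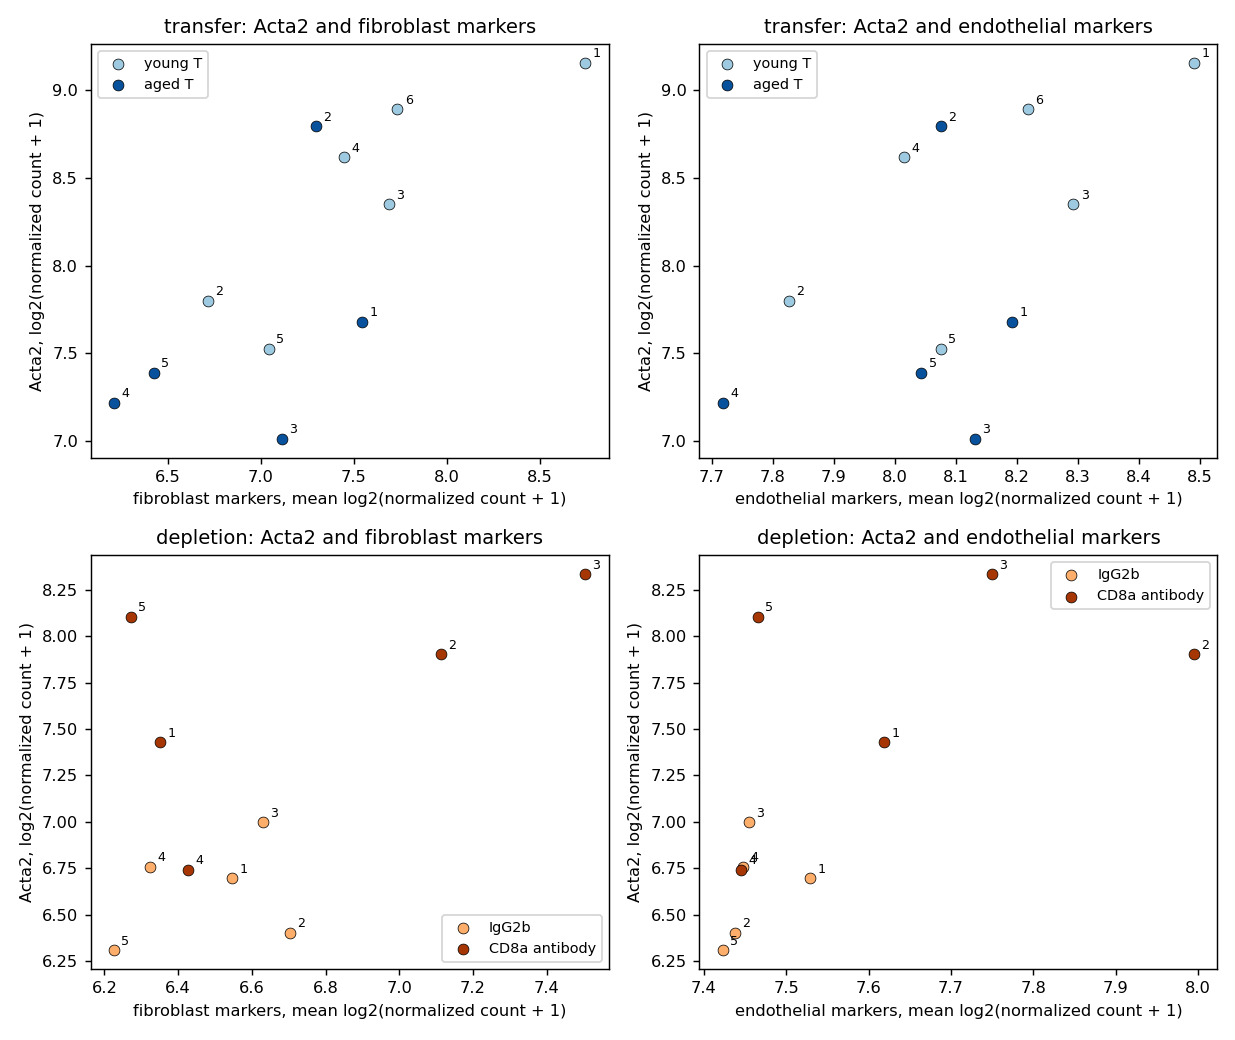
Acta2 level (vertical axis, log2(normalized count + 1)) against the mean log2 level of fibroblast markers (left) or endothelial markers (right) in each library of the transfer (top) and depletion (bottom) experiments, with the library number beside each point. Young T library 1 is highest on both axes of the upper panels, and CD8a antibody library 3 has the highest Acta2 and fibroblast levels of the lower left panel.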

How the data were processed

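Hippocampal RNA was read from strand-specific, polyA-enriched, paired-end libraries, per the labels' protocols. STAR, RSEM, DESeq2 and the mm10 build appear in the submitters' processing notes with no version or role. The deposited tables, 1 per experiment, hold normalized counts, a signal in which each read count was divided by 1 size factor per library. They also hold the authors' log2 fold changes with standard errors, a test score and p-values as deposited, whose sign is turned here to treated minus control. Every value was a whole multiple of 1 step per library (100% of values, relative tolerance 1e-06), so whole reads were recovered and used for the count-based alternatives.

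Each gene was tested with limma-trend in R 4.3.3 (limma 3.58.1), on the log2 of the normalized count plus 1, over genes with a mean of at least 10, each experiment alone, with Benjamini-Hochberg adjustment over all genes tested and calls at 0.05. Fold changes on this scale understate those of weak genes. edgeR had been named for raw counts, and the tables hold normalized ones. Alternatives were edgeR 4.0.16 (quasi-likelihood), DESeq2 1.42.0, limma-voom, pseudocounts of 0.5 and 5, no mean filter or one of 50, upper-quartile scaling, marker lists as covariates, a transcript length trend subtracted, and each library left out. Scripts were tested on simulated data. Library totals were 9957822 to 15055422 reads, and limits of 3 reads per library cover counting error only.

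The members and the 16 gene lists were chosen with earlier results of these data known, so no set test was run. Named genes were the 10 members, their relatives, per list the called genes and the 2 tested genes with the smallest p, and the 8 genes most like Myh11 and Rgs5. Srf, Myocd, Pdgfb, Ppp1r14a in the transfer experiment and the striated actins were named after their values were seen. Lengths and gene positions are from GENCODE M21 (GRCm38, matching mm10), in which 23376 of 24411 symbols had a length, and promoter windows are from RefSeq.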

Additional observations from a re-analysis of the deposited data

Results flagged for a closer look

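In 5 of 40 groups of 5 or 6 mice a single library stood far from the rest by Dixon's range test at 95%. That test flags about 1 in 20 groups of independent, normally spread values. Normalized counts need not be normally spread and the genes share libraries, so the 5 cannot be read as an excess. Aged T library 2 had 442 normalized counts of Acta2, against 128 to 204 in the other 4 aged T libraries, and 26.7 of Cnn1, against 1.13 to 5.07. It was also the highest of its group in Tagln, Myh11, Myl9, Des, Pdgfrb and Abcc9. CD8a antibody library 3 had 17.5 normalized counts of Cnn1, against 2.23 to 5.88 in the other antibody libraries, and was highest in Acta2, Tagln and Myh11. IgG2b library 5 had 9.66 of Des, against 12.2 to 13.01, but this is 9 reads against 14 to 15, where counting error is large. CD8a antibody library 2 had 538 of Rgs5, against 240.1 to 317.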

How the results depend on the processing

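limma called 0 of the 10 genes in the transfer and 0 of the 9 in the depletion experiment with every library left out in turn, and 0 under every other alternative except DESeq2, which called 2 in the depletion experiment, Acta2 and Myl9, where it called 89 of 13939 genes. Without CD8a antibody library 5 limma called 25 of 13939 genes, against 1 with all libraries. The median of the 10 in the transfer, -0.39, was between -0.58 and -0.28 with single libraries left out, -0.26 with the endothelial and -0.15 with the fibroblast mean as a covariate. The depletion median of 0.68 was 0.29 with the endothelial mean and 0.41 with the fibroblast mean as a covariate, and between 0.38 and 0.81 with single libraries left out. Some signs turned. In the transfer, Kcnj8 was at 0.22 with the endothelial mean, and with the fibroblast mean Kcnj8 was at 0.29, Myl9 at 0.21, Des at 0.10 and Pdgfrb at 0.016. With single libraries left out, Kcnj8 ran from -0.23 to 0.10 in the transfer and from -0.017 to 0.23 in the depletion experiment, and Rgs5 from -0.28 to 0.0070 in the depletion experiment. The cause of these shifts was not tested. Of the values of single genes under alternatives, 392 kept their sign and side of the threshold, 12 turned sign and 2 passed it. Cnn1 in the depletion experiment, at 32 and 14 reads, was below the level tested. No paired analysis was possible because the replicate numbers follow the order of the sample records and pair no mice.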
